A study of Mus musculus with 6 samples.

Results

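The 10 genes described here, Atf4, Atf5, Ddit3, Trib3, Chac1, Asns, Psat1, Phgdh, Sesn2 and Ppp1r15a, are ATF4 and genes of the integrated stress response. They were taken by gene name from the 54532 rows of the deposited count table. The 10 names matched 11 rows, because Ddit3 has a second row of 105 bases with no count in any library, and the row with the larger total was used. RNA of macrophages from infarcted mouse hearts was sequenced in 6 libraries, with 3 libraries per group. All mice were on the C57BL/6 strain and 12 weeks old, and all hearts had been under permanent coronary occlusion for 7 days. The control group was ITGA5 fl/fl, whose integrin α5 gene is floxed but still whole, since these mice have no Cre. The other group, Myα5KO, carried the same floxed alleles and a Cre driven by lysozyme M, a locus active in macrophages, monocytes and neutrophils alike, so the loss of the integrin and the presence of Cre cannot be told apart. Each library was made from cells of an individual heart that had been depleted of Ly6G-bearing neutrophils and then selected for CD11b on magnetic columns.

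In the integrated stress response, kinases that sense misfolded proteins, missing amino acids, double-stranded RNA or lack of heme phosphorylate the translation factor eIF2α. General protein synthesis falls, while the ATF4 mRNA, which has short reading frames upstream of its coding sequence, is translated more. ATF4 then switches on genes of amino acid synthesis and uptake and of tRNA charging, together with a second wave of regulators that includes CHOP. Because ATF4 is controlled largely at translation, its mRNA level is not a measure of its protein.

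The targeted gene was low in every Myα5KO library. Total counts were between 15424451 and 18419287. Itga5, the floxed gene, averaged 606.9 ± 43.2 against 48.7 ± 1.48 CPM (counts scaled to library depth, ITGA5 fl/fl against Myα5KO, SD, n = 3 each), and its log2 fold change was -3.64 (SE 0.08, with an edgeR adjusted p of 4.42e-12). Lyz2, the gene of the locus that drives Cre, fell by 0.92 on the log2 scale (SE 0.08, edgeR adjusted p = 4.27e-05). It averaged 7315 ± 286 against 3874 ± 254 CPM and is counted in the macrophage sum that follows. All 11 macrophage markers examined were expressed, and their summed level was 24595 to 25175 CPM in the ITGA5 fl/fl libraries and 19295 to 19911 CPM in the Myα5KO libraries. Of these markers, Lyz2 and Cd14 were called lower (log2 fold changes -0.92 and -0.45) and Fcgr1 higher (0.27), and the other 8, which include Adgre1, Csf1r, Mertk and C1qa, were not called and lay between -0.20 and -0.01. Of 10 neutrophil markers 7 were called higher in Myα5KO, with summed levels of 35.9 to 59.5 CPM against 80.4 to 200.2 CPM, while Ly6g itself had at most 2 counts in any library. Retnlg went the other way without being called (log2 fold change -0.65, edgeR adjusted p = 0.311). Cxcr2, with 7 or 8 counts in every library, was not tested. All 7 fibroblast markers had negative fold changes, with sums of 1618 to 1897 CPM against 1209 to 1578 CPM, and 1 of them was called lower. The sum of cardiomyocyte markers was 19.2 to 22.2 CPM against 13.0 to 16.8 CPM, with 2 of 7 tested called lower. B cell markers summed to 60.4 to 95.2 CPM against 94.5 to 148.0 CPM, with 2 of 4 called higher, and T and NK cell markers to 3.35 to 4.55 CPM against 5.56 to 6.26 CPM, with none of the 2 tested called. Endothelial and dendritic cell markers had 1 higher call each. The part of these other cells in the results below was not tested. In sorted bulk cells, fewer cells of a type and less RNA per cell cannot be told apart.

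ATF4 pairs with C/EBP proteins on a composite DNA element, searched here as TGATGNAA and its reverse complement TTNCATCA in RefSeq promoter windows of 300 bases (250 before the gene start and 50 from it, build GRCm38.p6). The letters were present in 3.97% of all 32851 windows and in 4.51% of the 27025 genes with a window. All 10 members had a window, and 3 of them held a match: Asns, which encodes asparagine synthetase, Chac1, an enzyme that degrades glutathione, and Trib3, a pseudokinase that restrains ATF4. Stretches around these matches are shown so that the element can be read in the genes whose values follow, with the match in capitals, 5′ to 3′ on the strand of the gene. The Asns stretch lies at chr6:7693214-7693243 on the minus strand, the Chac1 stretch at chr2:119351023-119351082 on the plus strand and the Trib3 stretch at chr2:152344028-152344057 on the minus strand.
Asns: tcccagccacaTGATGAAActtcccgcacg
Chac1: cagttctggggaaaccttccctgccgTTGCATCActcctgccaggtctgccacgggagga
Trib3: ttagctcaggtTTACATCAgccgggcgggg

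Counted from the RefSeq start, the match began 23 bases before Asns, 193 bases before Chac1 and at base 15 of Trib3. These starts are not always those of the gene spans in the count table given below: the Asns match lies inside the span, and the Trib3 match lies just outside the span. The stretches shown for Asns and Trib3 overlap an annotated exon. A match is a description of the letters and not evidence of binding, and nothing follows from the windows of the other 7 members.

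The levels of the members spanned a wide range. On the scale of the deposited FPKM, fragments corrected for gene length and library depth, Ppp1r15a averaged 149.7 and Atf4 117.4 over the 6 libraries, above 98.9% and 98.5% of the 27687 genes with any value. Within each group, every Ppp1r15a value was above every Atf4 value. Ddit3 followed with a mean of 14.5 FPKM, Sesn2 with 7.76, Atf5 with 7.25 and Psat1 with 4.36. Phgdh averaged 1.29, Trib3 0.956, Asns 0.944 and Chac1 0.348 FPKM. In this order Sesn2 and Atf5 overlapped in their library values, as did Phgdh and Trib3 and then Trib3 and Asns, and these neighbours cannot be ranked beyond their spread. The regulators Ppp1r15a and Atf4 were thus far above the enzyme genes Asns, Phgdh and Chac1 in FPKM in these macrophages.

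None of the 9 members that passed the filter on low counts was called between Myα5KO and ITGA5 fl/fl at an adjusted p of 0.05 or less by edgeR's quasi-likelihood test. The background was 8.75% of the 14522 genes tested, 3.56% called higher and 5.19% called lower. An unadjusted p under 0.05 was found for 3 members, Atf4, Sesn2 and Ppp1r15a (33.3% of the 9), compared with 23.1% of all tested genes. DESeq2 called 2 members lower, Atf4 and Ppp1r15a, and limma on log2 FPKM called none. The median log2 fold change of the 9 members was -0.02, beside 0.01 for all tested genes, with 4 positive and 5 negative values. When counts were scaled by library size alone, it was 0.06, beside 0.095 for all tested genes. The groups did not overlap in CPM for 2 members, Sesn2 higher and Ppp1r15a lower, beside 28.6% of all tested genes. A call that is missing does not show equal levels, and the 95% intervals given for each member, each taken on its own, state the changes that these 6 libraries leave possible.

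**Figure D1:**
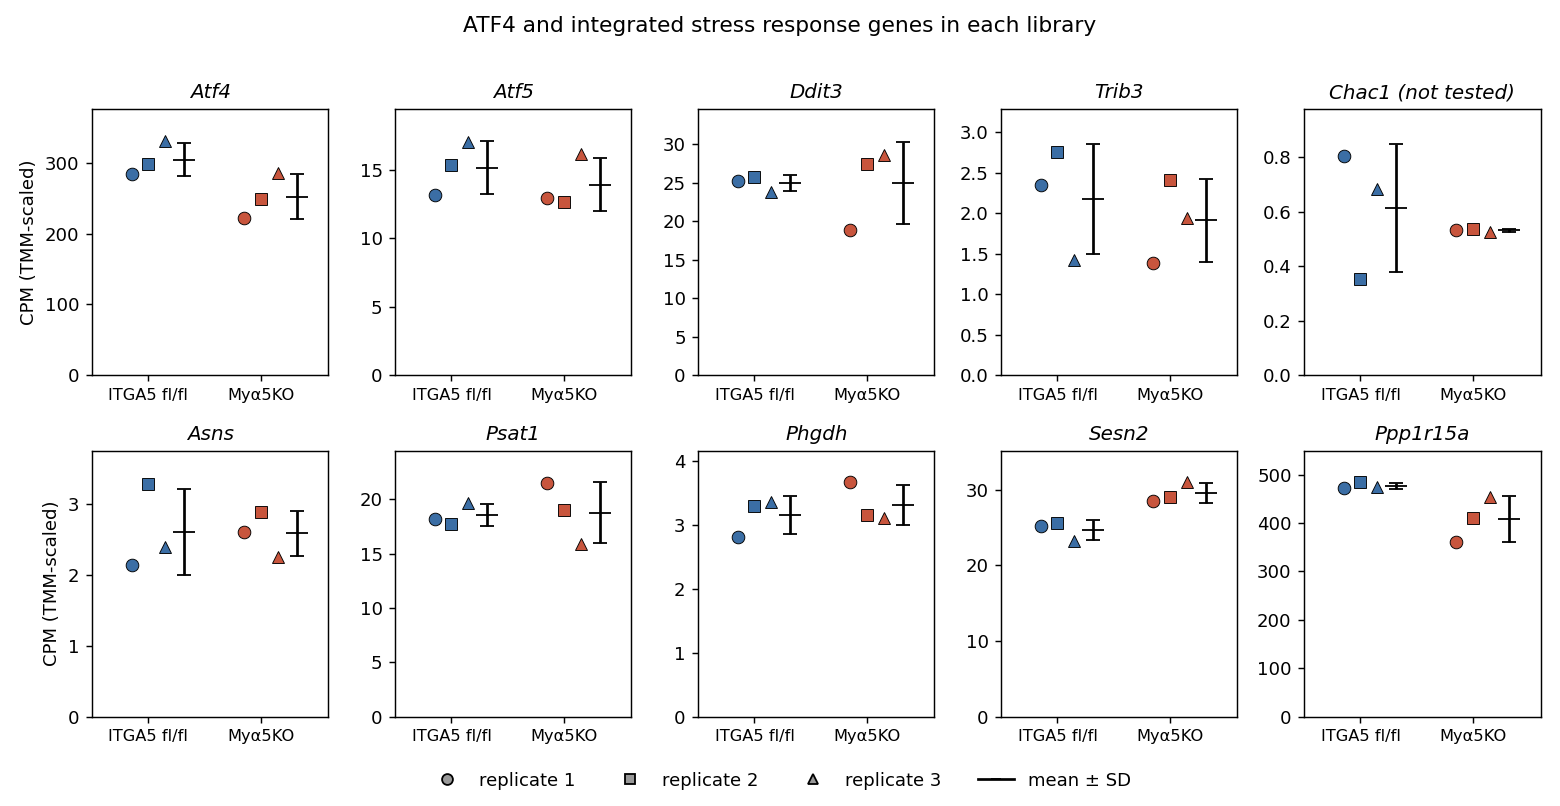
Level of each member in CPM (scaled by TMM factors, linear axes from 0) in the 3 ITGA5 fl/fl libraries (blue) and the 3 Myα5KO libraries (red), with symbols for the replicates and bars for mean ± SD (n = 3). Sesn2 was higher in every Myα5KO library and Ppp1r15a lower, while Atf4 overlapped between Myα5KO 3 and ITGA5 fl/fl 1; no member was called by edgeR.

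Atf4 (ENSMUSG00000042406), the transcription factor at the centre of the response, lies at chr15:80255184-80257541 on the plus strand and is protein coding. It was at 284.8, 299.2 and 330.5 CPM in ITGA5 fl/fl libraries 1 to 3 and at 222.6, 249.1 and 285.8 CPM in Myα5KO libraries 1 to 3. The Myα5KO libraries were the lower ones except for Myα5KO 3, which was level with ITGA5 fl/fl 1. Means were 304.9 ± 23.4 and 252.5 ± 31.7 CPM (SD, n = 3 each), and the fitted fold was 0.828 (95% interval 0.724 to 0.947, log2 fold change -0.27, SE 0.09, edgeR adjusted p = 0.0803). Without Myα5KO 3 the log2 fold change was -0.37 and passed the test (edgeR adjusted p = 0.0148). DESeq2 also called it lower (-0.28, adjusted p = 0.024), as did edgeR with no filter on low counts (-0.27, adjusted p = 0.00874). Over the 14 alternatives the log2 fold change lay between -0.37 and -0.19 and the adjusted p between 0.00874 and 0.283. The direction was the same in each of them.

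Ppp1r15a (ENSMUSG00000040435, chr7:45522916-45526268, minus strand) encodes GADD34, the stress-induced subunit that directs a phosphatase to eIF2α and so ends the response. Its level was 472.7, 484.4 and 473.8 CPM in the ITGA5 fl/fl libraries. In the Myα5KO libraries it was 360.9, 409.3 and 454.2 CPM. All 3 Myα5KO libraries were below all 3 controls, and they varied more among themselves. The fold was 0.856 (95% interval 0.758 to 0.966, log2 fold change -0.22, SE 0.08, edgeR adjusted p = 0.109). Here too the call depended on the fit, and 2 of the 14 alternatives called the gene. Without Myα5KO 3 the log2 fold change was -0.31 with an edgeR adjusted p of 0.0182. With every library kept, DESeq2 gave -0.24 with an adjusted p of 0.0385. The gene shares 717 bases with Tulp2 on the other strand, which had 32 to 49 counts beside 6779 to 8638 for Ppp1r15a. Its constitutive paralog Ppp1r15b did not pass (-0.09 on the log2 scale, edgeR adjusted p = 0.415).

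Myα5KO 3, the library in which both genes were highest among the Myα5KO samples, also had the largest sum of 13 dissociation and immediate early genes. That sum was 11370, 12324 and 11102 CPM in the ITGA5 fl/fl libraries against 11830, 14618 and 16692 CPM in the Myα5KO libraries (exact two-sided permutation p = 0.2, adjusted over 11 library measures p = 0.244, with 0.1 the smallest p that 3 against 3 allow). Myα5KO 3 was also the highest of the 6 libraries in the sum of neutrophil markers (200.2 CPM). The same holds for its shares of ribosomal protein genes (3.55% of counts) and mitochondrial genes (1.08%). The part of any of these measures in the values of Atf4 and Ppp1r15a was not tested. Of the 13 dissociation and immediate early genes, 5 were called higher, Fos (log2 fold change 0.55), Fosb (0.41), Nr4a1 (0.42), Ier2 (0.38) and Dusp1 (0.27), and 1 lower, Ier3 (-0.41). The abundant Junb and Zfp36 were not called (0.15 and 0.21). The count of higher calls moved with single libraries and with the method. It was 0 without ITGA5 fl/fl 3, 2 without Myα5KO 2, 3 without ITGA5 fl/fl 1, ITGA5 fl/fl 2 or Myα5KO 3, and 11 without Myα5KO 1. With every library kept, it was 0 with limma at either pseudocount, 8 with library size alone and 10 with no count filter.

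Sesn2 (ENSMUSG00000028893, chr4:132492032-132510501, minus strand) encodes Sestrin 2, which senses leucine and holds back mTORC1. It was at 25.2, 25.7 and 23.2 CPM in the ITGA5 fl/fl libraries and at 28.6, 29.1 and 31.0 CPM in the Myα5KO libraries. Every Myα5KO library was above every control, and the spread within each group was small. Means were 24.7 ± 1.30 and 29.6 ± 1.28 CPM (SD, n = 3 each), a fold of 1.20 (95% interval 1.06 to 1.35, log2 fold change 0.26, SE 0.08). The edgeR adjusted p was 0.0669, and of the 14 alternatives only scaling by library size alone took it past the threshold, to 0.0192 at 0.34 on the log2 scale. A predicted gene on the same strand shares 6089 bases of its span with Sesn2 and had 1 to 11 counts. The paralog Sesn1 rose from 29.0, 31.6 and 26.6 CPM to 43.8, 48.1 and 58.9 CPM, a fold of 1.73 (95% interval 1.48 to 2.03, edgeR adjusted p = 7.12e-04), and was called under each of the 14 alternatives. Sesn1 is known as a target of p53 and FOXO factors rather than of ATF4. Of the 9 paralogs of members it was the one called, and the most abundant others, Trib1 (log2 fold change -0.08) and Ppp1r15b, were not.

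Ddit3 (ENSMUSG00000025408, chr10:127290774-127296288, plus strand) encodes CHOP, the factor that links long stress to cell death. Its levels were 25.3, 25.8 and 23.7 CPM in the ITGA5 fl/fl libraries against 18.8, 27.4 and 28.6 CPM in the Myα5KO libraries. Myα5KO 1 lay below all controls and the other 2 Myα5KO libraries above them. The fold was 1.00 (95% interval 0.824 to 1.22, edgeR adjusted p = 0.998), and the sign of the log2 fold change depended on the settings. Ddit3 shares 68 bases with Mars on the other strand, which had 397 to 648 counts beside 353 to 543 for Ddit3. Reads in the shared bases are uncertain if strand was not used in counting. Of 5 genes known as CHOP targets in cell death, none was called by edgeR. An unadjusted p under 0.05 was found for 4 of them (80%), beside 23.1% of all tested genes. Of these 4, Bcl2l11, Tnfrsf10b (-0.40) and Ero1l had negative log2 fold changes and Bcl2 (0.24) a positive one. Tnfrsf10b and Bcl2 are named here after their values were seen. In the alternatives, DESeq2 and edgeR with no count filter each called 1 lower, and edgeR with library size alone or without Myα5KO 1 each called 1 higher. Bcl2l11, which encodes the death-promoting protein BIM, was at -0.23 on the log2 scale (edgeR adjusted p = 0.0758), and Ero1l, an oxidase of the endoplasmic reticulum, at -0.20 (edgeR adjusted p = 0.214).

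Atf5 (ENSMUSG00000038539, chr7:44812256-44816658, minus strand), a relative of ATF4 that is also translated under stress, was at 13.1, 15.3 and 17.0 CPM in the ITGA5 fl/fl libraries and at 12.9, 12.7 and 16.1 CPM in the Myα5KO libraries. The groups overlapped, with a fold of 0.916 (95% interval 0.759 to 1.11, edgeR adjusted p = 0.601). Its span shares 571 bases with Nup62 on the other strand, which had 569 to 815 counts where Atf5 had at most 307, so its value is uncertain if strand was not used in counting. Trib3 (ENSMUSG00000032715, chr2:152337422-152344032, minus strand) was at 2.35, 2.76 and 1.42 CPM in the controls and at 1.38, 2.41 and 1.95 CPM in Myα5KO, with a fold of 0.882. With 25 to 47 counts per library, its interval of 0.567 to 1.37 was the widest among the members. Chac1 (ENSMUSG00000027313, chr2:119351229-119354381, plus strand) had 12, 6 and 12 counts in the ITGA5 fl/fl libraries and 10 in each Myα5KO library, too few to be tested.

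The 3 genes of amino acid synthesis showed overlapping groups. Asns (ENSMUSG00000029752, chr6:7675169-7693254, minus strand) was at 2.14, 3.29 and 2.39 CPM in the ITGA5 fl/fl libraries and at 2.61, 2.89 and 2.26 CPM in the Myα5KO libraries, with a fold of 0.988 (95% interval 0.703 to 1.39, edgeR adjusted p = 0.978). Phgdh (ENSMUSG00000053398, chr3:98313170-98339990, minus strand) makes the first intermediate of serine synthesis and was at 2.82, 3.29 and 3.36 CPM against 3.67, 3.16 and 3.10 CPM, a fold of 1.05 (95% interval 0.791 to 1.39, edgeR adjusted p = 0.871). Psat1 (ENSMUSG00000024640, chr19:15904678-15947337, minus strand), the next enzyme of that route, was at 18.2, 17.7 and 19.7 CPM against 21.5, 19.0 and 15.9 CPM. Its fold was 1.01 (95% interval 0.855 to 1.20, edgeR adjusted p = 0.946), the tightest limit on a change among these 3 genes. None of 8 further genes of serine, glycine, one-carbon and proline synthesis was called by edgeR, 1 had an unadjusted p under 0.05, and their median log2 fold change was 0.10. The most abundant were Shmt2 (log2 fold change 0.10) and Mthfd2 (-0.15), mitochondrial enzymes of the folate cycle.

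The members did not move as 1 block across libraries. Among the 9 tested members, Myα5KO 1 was the lowest library for 4 (Atf4, Ddit3, Trib3 and Ppp1r15a) and the highest for 2 (Psat1 and Phgdh), and ITGA5 fl/fl 2 was the highest for 3. The ratio of the highest to the lowest CPM over the 6 libraries ran from 1.30 for Phgdh to 1.99 for Trib3 and was 1.48 for Atf4.

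The other genes of the pathway were read from lists of 119 genes, of which 115 were tested, 10 called higher and 12 lower. The calls were 19.1% of the 115, beside 8.75% of all tested genes. A single call was 8.33% of the synthetases of the ATF4 program, 12.5% of the other synthetases and 11.1% of the paralogs. It was 16.7% of the mitochondrial stress genes and 20% of the list of eIF2α kinases. The share was 29.4% for bZIP partners and stress targets, 37.5% for transporters and 46.2% for early response genes. The lists do not share a direction. Of the 12 lower calls, 10 were in the lists of amino acid transporters, of bZIP partners and stress targets, and of the ATF6 and XBP1 arms, and of the 10 higher calls 5 were early response genes. Scaling by library size alone gave 17 higher and 7 lower calls in these lists, and over all tested genes 1212 higher and 518 lower in place of 517 and 754.

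**Figure D2:**
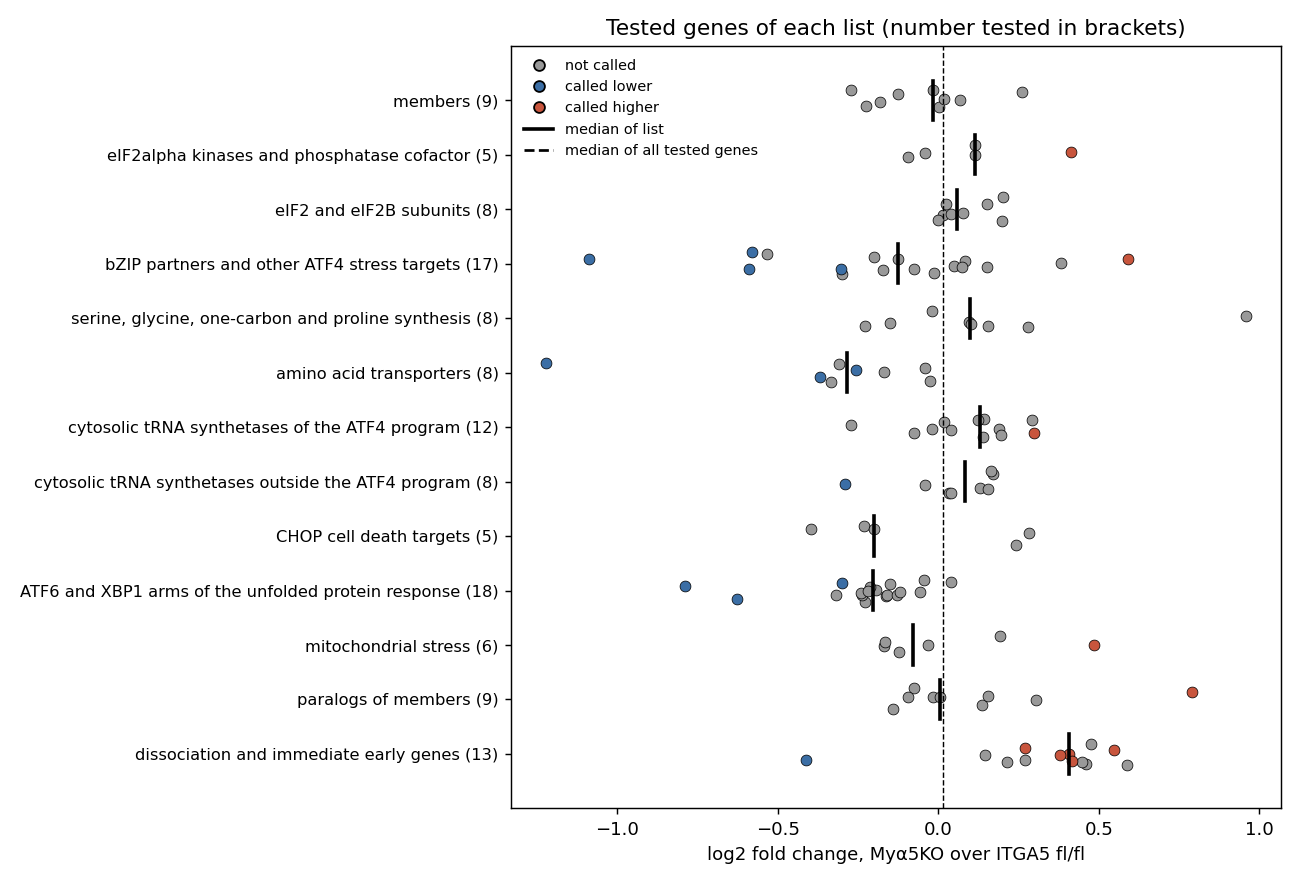
Log2 fold change, Myα5KO over ITGA5 fl/fl, of each tested gene (points) in the members and in each list of related genes, with the list median (bar) and the median of all tested genes (dashed line at 0.01). Called genes are coloured; the members cluster near 0 with none called, and amino acid transporters and the ATF6 and XBP1 list sit to the left with medians of -0.28 and -0.20.

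Upstream of ATF4, 1 of 5 genes for eIF2α kinases and the phosphatase cofactor was called. Eif2ak2, which encodes PKR, the kinase that senses double-stranded RNA and is induced by interferon, was at 34.9, 38.8 and 36.1 CPM in the ITGA5 fl/fl libraries and at 54.2, 47.0 and 45.1 CPM in the Myα5KO libraries, a fold of 1.33 (95% interval 1.18 to 1.51, edgeR adjusted p = 0.00855). All Myα5KO libraries were above all controls, and the call held in 12 of the 14 alternatives but not with limma at either pseudocount (adjusted p = 0.0569 and 0.0573). The heme-regulated kinase gene Eif2ak1 did not pass (0.12 on the log2 scale, edgeR adjusted p = 0.322), nor were those of the endoplasmic reticulum kinase PERK (Eif2ak3, 0.12) and the amino acid sensor GCN2 (Eif2ak4, -0.04), which are named here after their values were seen. None of 8 subunit genes of eIF2 and its exchange factor eIF2B was called by edgeR, and 1 had an unadjusted p under 0.05. Their fold changes were between 0.00 and 0.20 on the log2 scale, with Eif2s3x at 0.03 and Eif2s2 at 0.00.

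Among 17 tested bZIP partners and other stress targets of ATF4, 1 was called higher and 4 lower, with a median log2 fold change of -0.12. Jdp2, a repressor of the AP-1 family, was at 518.3, 525.6 and 537.1 CPM in the ITGA5 fl/fl libraries and at 244.4, 269.2 and 230.7 CPM in the Myα5KO libraries, a fold of 0.471 (95% interval 0.423 to 0.524, edgeR adjusted p = 2.87e-06). Sqstm1, the autophagy receptor p62 and also a known NRF2 target, had a fold of 0.664 (edgeR adjusted p = 4.18e-04). Ddit4, an inhibitor of mTORC1 that also responds to hypoxia and p53, had a fold of 0.668 (edgeR adjusted p = 0.00124). In all 3 genes the groups did not overlap, and the calls held under each of the 14 alternatives. Herpud1, a factor of protein degradation at the endoplasmic reticulum, had a fold of 0.810 (edgeR adjusted p = 0.0303). Its call held in 8 of the 14 alternatives. It was lost without ITGA5 fl/fl 2, ITGA5 fl/fl 3 or Myα5KO 1 (adjusted p = 0.131, 0.0869 and 0.0858). Scaling by library size alone and limma at either pseudocount also lost it. Cebpb and Cebpa, which encode partners of ATF4, were abundant and not called (log2 fold changes -0.12 and 0.05).

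Atf3, a stress factor that is both an ATF4 target and an early response gene, was the 1 gene of that list called higher. It was at 582.5, 578.6 and 460.6 CPM in the ITGA5 fl/fl libraries and at 634.6, 774.8 and 1034 CPM in the Myα5KO libraries. Myα5KO 3 was the highest, as for the early response genes above, and no library overlapped between groups. The fold was 1.51 (95% interval 1.22 to 1.86, edgeR adjusted p = 0.0213). It was called in 10 of the 14 alternatives, and not by DESeq2 (adjusted p = 0.0791), by limma at either pseudocount (0.118 and 0.12) or by edgeR without ITGA5 fl/fl 3 (0.104).

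All 8 tested amino acid transporters had negative log2 fold changes with the main scaling, 3 of them called, and the median was -0.28. With library size alone 6 of 8 were negative. Slc7a11, the cystine and glutamate exchanger that ATF4 and NRF2 both induce, was at 141.0, 149.1 and 169.7 CPM in the ITGA5 fl/fl libraries and at 72.7, 76.5 and 48.1 CPM in the Myα5KO libraries. Every Myα5KO library was far below every control, the fold was 0.429 (95% interval 0.352 to 0.523, edgeR adjusted p = 1.88e-04), and the call held under each of the 14 alternatives. Slc3a2, its heavy chain partner, had a fold of 0.836 (edgeR adjusted p = 0.0357), and Slc7a1, a carrier of arginine and lysine, 0.774 (edgeR adjusted p = 0.0255). These were narrow calls: Slc3a2 lost its call without any 1 library other than Myα5KO 3 (adjusted p from 0.0673 to 0.117) and Slc7a1 without any 1 library other than Myα5KO 1 (0.0517 to 0.0934). Over the 14 alternatives, Slc3a2 was called in 5 and Slc7a1 in 6, and neither with library size alone or with limma. The abundant carriers Slc38a2 and Slc1a5 were not called (log2 fold changes -0.04 and -0.17).

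**Figure D3:**
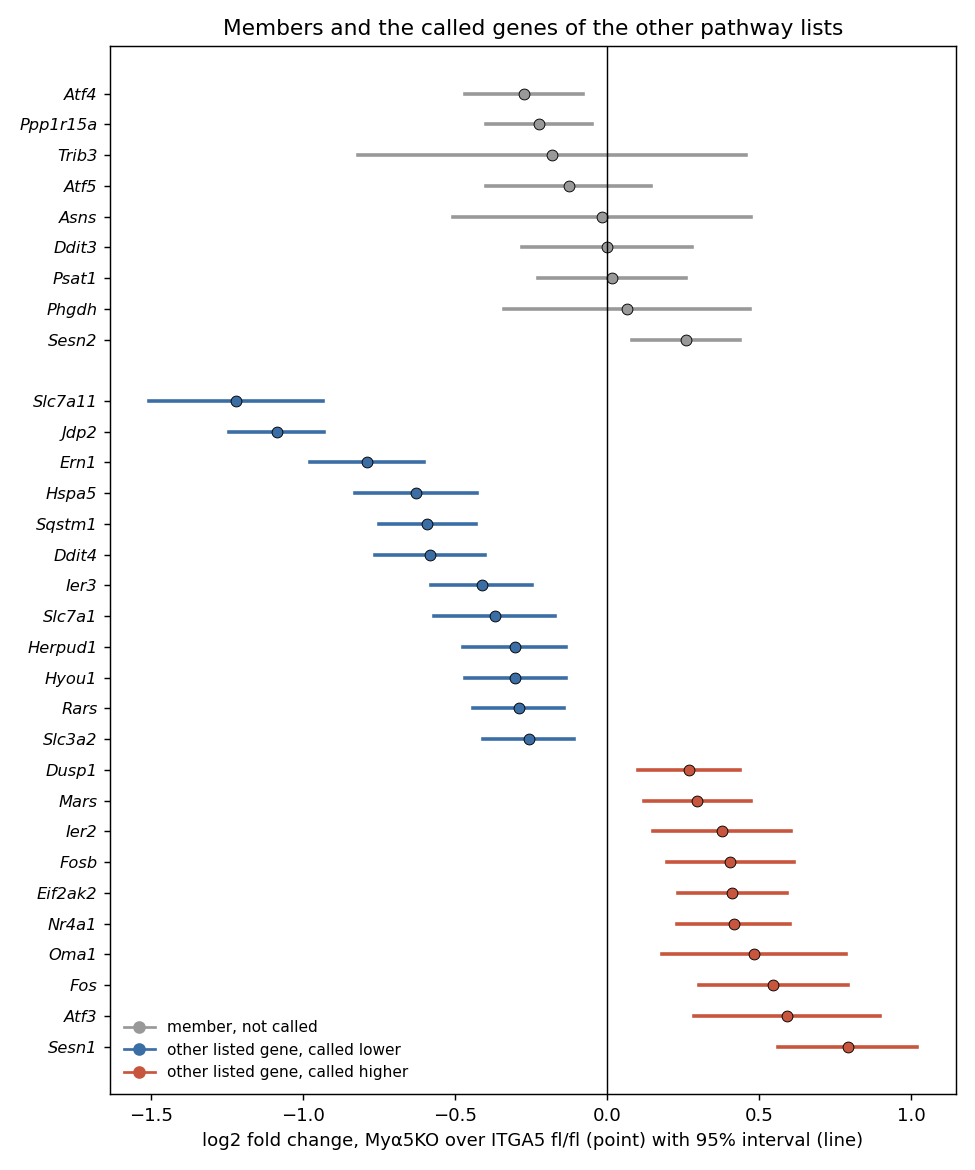
Log2 fold change, Myα5KO over ITGA5 fl/fl, with its 95% interval for the 9 tested members (grey, above) and for the 22 called genes of the other lists (blue lower, red higher). The intervals of Atf4, Ppp1r15a and Sesn2 exclude 0 without passing the adjusted test, and Slc7a11 and Jdp2 lie furthest to the left at -1.22 and -1.09.

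Of 12 cytosolic tRNA synthetase genes of the ATF4 program, 1 was called higher and none lower, with a median log2 fold change of 0.13. That gene was Mars, for methionine, with a fold of 1.23 (edgeR adjusted p = 0.0384), which held in the absence of Myα5KO 3 but of no other single library (adjusted p from 0.0799 to 0.171) and not by DESeq2 (0.0587). Limma did not call it at either pseudocount. Mars is the neighbour that overlaps Ddit3. Eprs, the most abundant of the list, was at -0.27 on the log2 scale (edgeR adjusted p = 0.0666) and Nars at -0.08. DESeq2 called 1 gene of this list lower. Among 8 synthetases outside the program 1 was called lower, Rars, for arginine (fold 0.818, edgeR adjusted p = 0.0215), and the median was 0.08. Its call was lost without ITGA5 fl/fl 1, 2 or 3 or Myα5KO 1 (adjusted p from 0.0505 to 0.0739). The call of Rars was also lost with library size alone and with limma at either pseudocount. Qars and Vars were not called (log2 fold changes -0.04 and 0.16).

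The ATF6 and XBP1 arms of the unfolded protein response, which are set off by the same stress of the endoplasmic reticulum as PERK, had 3 of 18 genes called lower and none higher. This was 16.7% of the list, beside 5.19% of all tested genes called lower. The log2 fold change was negative for 17 of the 18 genes, with a median of -0.20. The groups did not overlap for 11 of them, beside 28.6% of all tested genes in either direction. With library size alone 15 were negative. Hspa5, the chaperone BiP, was at 3162, 2901 and 2951 CPM in the ITGA5 fl/fl libraries and at 1826, 2240 and 1767 CPM in the Myα5KO libraries, a fold of 0.647 (95% interval 0.563 to 0.744, edgeR adjusted p = 0.00141). Ern1, which encodes the sensor IRE1α, was at 222.5, 199.1 and 209.9 CPM against 126.2, 134.5 and 104.7 CPM, a fold of 0.579 (95% interval 0.508 to 0.659, edgeR adjusted p = 2.01e-04). Both genes were clearly separated between groups and were called under each of the 14 alternatives. Hyou1, another chaperone, had a fold of 0.812 (edgeR adjusted p = 0.0277), a call lost without ITGA5 fl/fl 2 or 3 or Myα5KO 2 or 3 (adjusted p from 0.056 to 0.119). Hyou1 also lost its call with library size alone and with limma at either pseudocount. The abundant chaperones Calr and Hsp90b1 were at -0.21 and -0.23 on the log2 scale (edgeR adjusted p = 0.104 and 0.0816). DESeq2 called 8 genes of this list lower, and edgeR called 6 with no count filter, with at least 10 counts in every library, or without ITGA5 fl/fl 1.

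In mitochondria, the protease OMA1 passes stress on to eIF2α. Oma1 was called higher, the only call among 6 genes of mitochondrial stress, at 11.3, 8.34 and 12.2 CPM in the ITGA5 fl/fl libraries against 15.1, 13.1 and 16.3 CPM in the Myα5KO libraries (fold 1.40, edgeR adjusted p = 0.0491). The call was at the edge of the threshold and held in the absence of Myα5KO 2 but of no other single library (adjusted p from 0.0525 to 0.189). Median-ratio scaling, a filter of at least 10 counts in every library and limma at either pseudocount also lost it. The mitochondrial chaperones Hspa9 and Hspd1 were not called (log2 fold changes -0.17 and 0.19). Mitochondrial genes took 0.954% to 1.01% of counts in the ITGA5 fl/fl libraries and 1.01% to 1.08% in the Myα5KO libraries (exact permutation p = 0.1, adjusted p = 0.183).

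**Figure D4:**
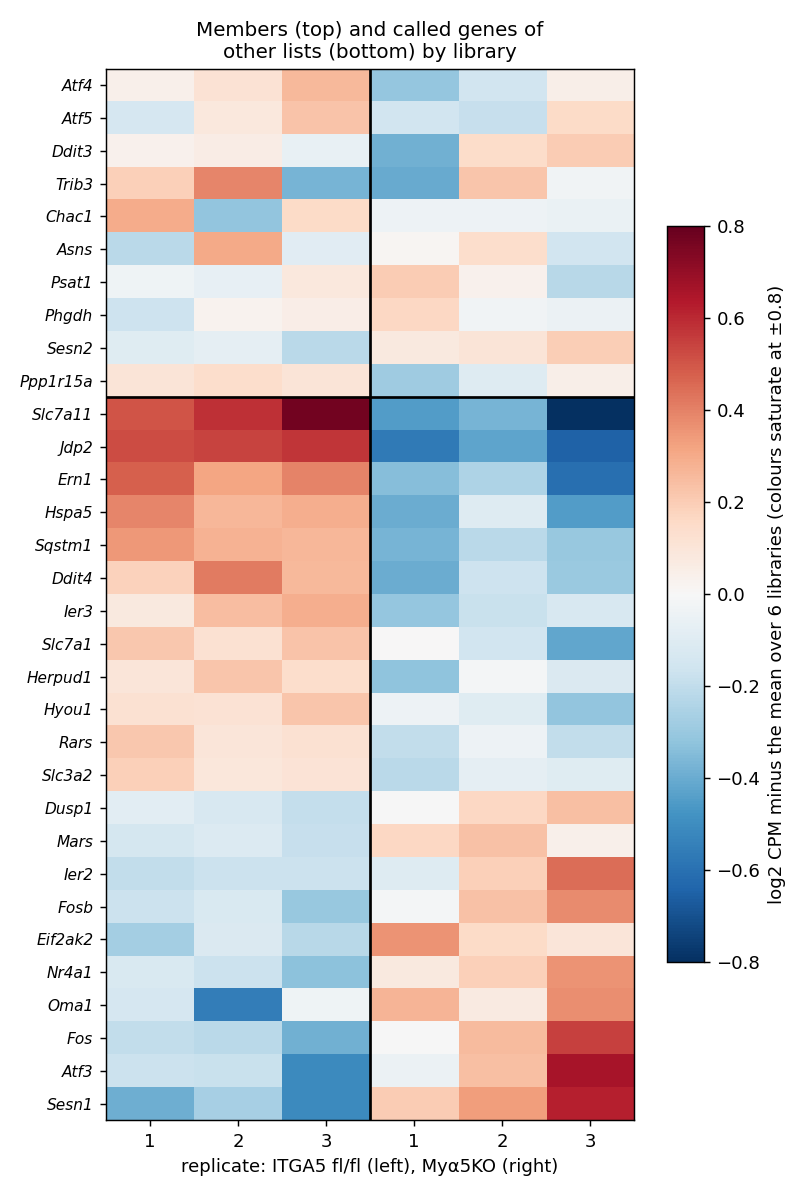
Log2 CPM of each member (above the line) and each called gene of the other lists (below), as the difference from that gene's mean over the 6 libraries, with ITGA5 fl/fl replicates 1 to 3 on the left and Myα5KO replicates 1 to 3 on the right. Sesn2 and Ppp1r15a are the tested members that do not overlap between groups, as Slc7a11, Jdp2 and Hspa5 do not below the line, and Fos and Atf3 are highest in Myα5KO 3.

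Among the genes of the other lists, 93 had a RefSeq promoter window. Of these, 15 (16.1%) held the composite element, beside 4.51% of all genes. Some of the lists were drawn from known ATF4 targets and others were not. One of the 15 was called higher, 3 lower, 10 were not called and 1 was not tested. The stretches of the 4 called genes are shown with the matches in capitals, to set the same letters beside changes of opposite sign: Atf3 at chr1:191183410-191183469 on the minus strand, Herpud1 at chr8:94386291-94386350 on the plus strand, Jdp2 at chr12:85599357-85599415 on the plus strand and Slc7a11 at chr3:50443646-50443705 on the minus strand.
Atf3: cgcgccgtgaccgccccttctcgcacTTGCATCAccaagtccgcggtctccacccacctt
Herpud1: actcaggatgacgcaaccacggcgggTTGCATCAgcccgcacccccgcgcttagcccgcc
Jdp2: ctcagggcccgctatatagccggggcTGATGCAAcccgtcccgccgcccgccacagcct
Slc7a11: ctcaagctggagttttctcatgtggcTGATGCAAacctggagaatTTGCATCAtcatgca

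Slc7a11 held a pair of matches, 66 and 47 bases before its start, and Atf3, Herpud1 and Jdp2 held 1 each, at 110, 112 and 33 bases before the start, all counted from the RefSeq start. The Atf3 and Jdp2 matches lie inside the gene spans of the count table. The 3 members with a match, Asns, Chac1 and Trib3, were not called or not tested. Over all tested genes with a window, 4.87% of the 308 with a match were called higher and 8.77% lower, beside 3.81% and 5.49% of all 10441. These shares are given as a description, with no test.

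**Figure D5:**
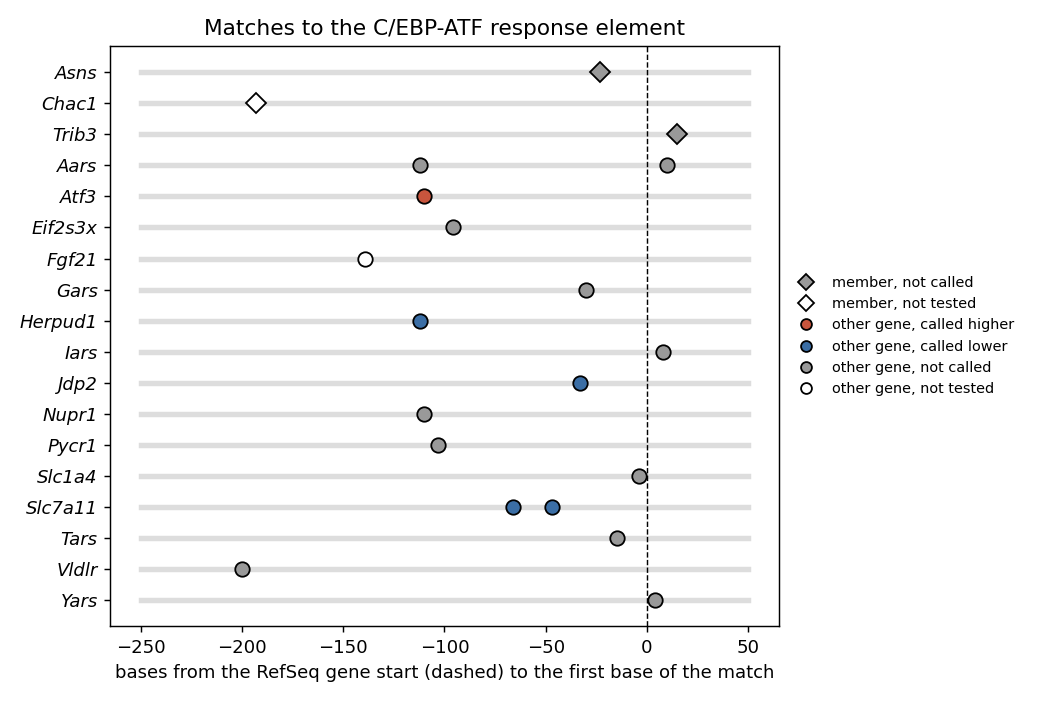
Position of each match to TGATGNAA or TTNCATCA in the promoter windows (grey lines) of members (diamonds) and other listed genes (circles), as bases from the RefSeq gene start to the first base of the match; colours give the call. Called genes (Slc7a11, Jdp2 and Herpud1 lower, Atf3 higher) and genes that were not called both hold matches upstream of the start.

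The 5 genes outside the lists whose profile over the 6 libraries was most like that of Atf4 were Tnf, Tceal9, Crtc2, Blvrb and Bcl2a1b, among 9207 genes compared. Likeness was the root mean square difference of centred log2 CPM, which was 0.04 for each of the 5, while Atf4 itself varied within groups by an SD of 0.15. Tnf, which encodes the cytokine TNF-α, was at 243.5, 261.4 and 281.4 CPM in the ITGA5 fl/fl libraries and at 186.7, 225.9 and 247.9 CPM in the Myα5KO libraries, and its log2 fold change was -0.25 (edgeR adjusted p = 0.123). As with Atf4, Myα5KO 1 was the lowest library and ITGA5 fl/fl 3 the highest. Of the 5 only Bcl2a1b was called (-0.34, edgeR adjusted p = 0.0283), and it belongs to a family of near-identical genes among which reads could be split. With 6 libraries and 9207 genes, such likeness is a description only.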

How the data were processed

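RNA-seq of 3 ITGA5 fl/fl and 3 Myα5KO macrophage libraries was used, grouped by title. Per the submitters' processing notes and the study's methods, reads were aligned to mm10 (GRCm38.p6) with TopHat2 2.0.9 and counted per gene with HTSeq 0.6.1, and Cufflinks 2.1.1 is also named. The deposited counts are whole reads per gene without normalization. The authors also deposited FPKM values, used here for levels between genes. Strand and multi-mapping settings are not given in the sources used here, so values of overlapping or near-identical genes are uncertain. Separate hearts are stated for the libraries, and p-values measure the spread between them.

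Counts were fitted in edgeR 4.0.16 (R 4.3.3) by quasi-likelihood with TMM scaling, after filterByExpr (minimum count 10, total 15), which left 14522 genes. Benjamini-Hochberg adjustment ran over all of them, a gene was called at an adjusted p of 0.05 or less, and every edgeR adjusted p is from this test. CPM values are TMM-scaled and intervals are 95%. The depth of 15424451 to 18419287 counts limits genes of few counts. Alternatives were DESeq2 1.42.0, other scalings and filters, a replicate block, limma 3.58.1 with trend on log2(FPKM + 1) or log2(FPKM + 0.1) for genes of at least 1 FPKM in 3 libraries, and each library left out. The fits were tested on simulated data. Library sums were compared by exact permutation tests.

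The members and lists were chosen with earlier results of these data known. Named were all members, Itga5 and Lyz2, the called genes of each list with its 2 most abundant genes that were not called, and the 5 genes most like Atf4 (mean of at least 100 counts, log2 CPM with an offset of 0.5). The RefSeq promoter table gave the sequences.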

Additional observations from a re-analysis of the deposited data

How the results depend on the processing

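The absence of called members held under 9 of 14 alternatives. DESeq2 called 2 lower, the fit without a count filter 1, the fit with a replicate block 1, and leaving out 1 library gave 0 to 2 (2 without Myα5KO 3). Scaling by library size alone called 1 higher. The fit without a count filter pooled its spread fully over 27687 genes. Replicate numbers did not pair the samples: same-number deviations correlated at 0.0518, -0.0749 and 0.0412. With the replicate block, Atf4 was at -0.28 (adjusted p = 0.029).

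Log2 fold changes near 0 changed sign. Ddit3 (0.00) was -0.0107 with DESeq2, -0.0104 with median-ratio scaling, -0.0154 with at least 10 counts in every library, -0.0141 with the replicate block, and -0.0251 and -0.0281 with limma (pseudocounts 1 and 0.1). With 1 library left out it ran from -0.108 to 0.164. Asns (-0.02) was 0.0621 with library size alone and ran from -0.134 to 0.185 with 1 library left out. In the same way Trib3 ran from -0.420 to 0.0354, Psat1 from -0.0931 to 0.126 and Phgdh from -0.0196 to 0.113. The causes were not tested.

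Over all genes, 517 were called higher and 754 lower. Higher calls were 1212 with library size alone, 798 without a filter, 150 and 142 with limma (pseudocounts 1 and 0.1), and 187 to 420 with 1 library left out. Lower calls were 322 and 306 with limma and 429 to 671 with 1 library left out. In the other lists, 10 higher calls became 17 with library size alone, 17 without a filter, 1 with limma at either pseudocount, and 2 to 16 with 1 library left out. The 12 lower calls became 19 with DESeq2, 7 with library size alone, 7 with limma at either pseudocount, and 7 to 12 with 1 library left out. Asns could not be fitted with limma, since it was under the FPKM minimum, and Chac1 was not tested by edgeR with its main filter.

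Trib3, Asns and Phgdh had few counts, so moderate changes in them were not detectable at this depth. The groups also differed in Cre and in markers of other cells. Protein and eIF2α phosphorylation were not measured.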
